A study of Homo sapiens with 4 samples.

Results

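The 6 human actin genes and 4 genes that serum response factor (SRF) and its cofactors are known to control were examined in NCI-H838 cells with and without induced knockout of MIB1. The 10 genes were ACTC1, ACTA1, ACTA2, ACTG2, ACTB, ACTG1, CNN1, MYL9, SRF and VCL, out of 58302 genes listed, and were taken by name. ACTC1 was chosen because its dox against no dox change in these same libraries was already known, and the other genes were set beside it to ask whether it moved alone. The changes of the 10 genes are therefore given as a description, and their p-values only as values of the fit across all genes.

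The libraries were RNA-seq of NCI-H838, an established cell line from a human lung carcinoma, carrying a piggyBac cassette with a guide RNA against MIB1, Cas9 under a tetracycline-controlled transactivator that doxycycline (dox) activates, and a puromycin resistance gene. MIB1 encodes the E3 ubiquitin ligase Mind bomb 1, and these MIB1-iKO cells were grown from single cells by dilution cloning after puromycin selection. Of the 4 libraries, 2 were from cells without dox and 2 from cells with 0.5 μg/mL dox, all at day 3, and the no dox cells carried the same cassette. Values of a group are given as a pair, replicate 1 first, which implies no matching between groups. The labels number the replicates without saying whether they came from separate cultures, so p-values measure the spread between these samples. For RNA-seq of MIB1-iKO cells after 3 days of dox, the study states 2 biological replicates per condition, without further detail. No dox-treated cells without the guide were analysed here, so the effects of dox, of Cas9 and of MIB1 loss cannot be told apart.

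MIB1 had 598 and 588 reads in no dox replicates 1 and 2, and 90 and 59 in dox replicates 1 and 2. Its log2 fold change was -2.58 (adjusted p by limma = 0.000375), which followed the labels. The no dox libraries held 24398411 and 21207419 reads, against 15943025 and 17048990 for the dox pair, so both dox libraries were the smaller ones. Of the epithelial markers, EPCAM, CDH1, KRT7, KRT8 and KRT18 were detected in every library, while KRT19 and the lung factor NKX2-1 were at 0 reads in all 4. Of 10 fibroblast markers, VIM, THY1, LUM and COL1A1 had reads in every library, and COL1A2 and FAP were at 0 in all 4. In RNA from whole cultures, fewer cells of a kind and less RNA per cell cannot be told apart.

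Actins are the subunits of actin filaments. ACTB and ACTG1 encode the cytoplasmic β- and γ-actins of nearly every cell, ACTA1 and ACTC1 the skeletal and cardiac muscle α-actins, and ACTA2 and ACTG2 the smooth muscle actins. SRF binds a DNA element called the CArG box and works with myocardin-related transcription factors (MRTF), which bind free actin monomers and enter the nucleus as monomers are used up by filament assembly, or with ternary complex factors (TCF), which respond to growth signals. Actin genes and genes for actin-binding proteins are classic MRTF-SRF targets, while FOS and the EGR genes are classic TCF-SRF targets.

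The promoter sequences are shown because they set out which of the genes carry the SRF element beside their start. Windows from 250 bases before to 50 bases after each annotated start were read from RefSeq (GRCh38.p14), in which 8 of the 10 genes had an entry, and ACTB and MYL9 had none. The element searched was CC, then 6 bases that are all A or T, then GG, a pattern that is found on both strands at once. It is in capitals below, each line runs 5′ to 3′ on the strand of the gene, and the position in brackets is that of the first base of the box relative to the start.
ACTC1, chr15:34795550-34795699, minus strand (box at -109): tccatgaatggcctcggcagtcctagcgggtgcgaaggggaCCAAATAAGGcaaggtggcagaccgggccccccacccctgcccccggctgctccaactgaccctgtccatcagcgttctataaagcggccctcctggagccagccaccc
ACTA1, chr1:229434157-229434216, minus strand (box at -97): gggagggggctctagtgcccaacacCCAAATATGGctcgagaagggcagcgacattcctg
ACTG1, chr17:81512859-81512918, minus strand (box at -94): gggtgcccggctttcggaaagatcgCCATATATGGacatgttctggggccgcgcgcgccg
ACTG2, chr2:73892873-73892932, plus strand (box at -110): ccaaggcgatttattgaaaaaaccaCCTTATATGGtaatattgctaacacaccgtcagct
ACTG2, chr2:73892910-73892969, plus strand (box at -73): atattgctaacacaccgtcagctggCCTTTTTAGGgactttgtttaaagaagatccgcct
SRF, chr6:43171214-43171268, plus strand (boxes at -30 and -10): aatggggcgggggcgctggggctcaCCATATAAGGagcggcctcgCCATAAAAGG

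A box with this pattern was found in a window of 5 of the 8 genes, namely ACTC1, ACTA1, ACTG1, ACTG2 and SRF, and in 438 of the 27305 genes with a window (1.6%). ACTG2 and SRF each held 2 boxes. When 1 of the 6 inner bases was allowed to be G or C, the ACTC1 window shown held 3 further matches, at -237, -200 and -149. The ACTA1 window likewise held further matches, at -224 and -178. ACTA2 also held a match, at -121 and at -71, as did 9.88% of all genes with a window. Other annotated windows of ACTC1, ACTA2 and SRF held no match of either kind. No match of either kind lay in the windows of CNN1 and VCL, which says only that these letters were not in those windows. The box was therefore present both at ACTC1, which was higher with dox, and at ACTG1, which did not pass the test.

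ACTC1 (ENSG00000159251, chr15:34790107-34795589, minus strand, GENCODE 44 on GRCh38) was about 2-fold higher with dox. It had 473 and 431 reads in the larger no dox libraries, against 561 and 742 in the smaller ones with dox. In the authors' RPKM, reads scaled by gene length and sequencing depth, its level was 4.90 and 4.80 in the no dox pair against 8.96 and 9.97 in the dox pair. Both dox libraries thus lay above both no dox libraries, and the replicates of a group lay closer to each other than to the other group. The mean rose from 4.85 ± 0.0757 (SD, n = 2) to 9.47 ± 0.711 (SD, n = 2), which is 1.95-fold.

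In the fit across 16181 genes, ACTC1 had a log2 fold change of 0.99 ± 0.14 (SE), with a 95% interval from 0.69 to 1.29 and an adjusted p of 0.0242 by limma. The study's rule asked for an adjusted p no higher than 0.05 and a change of 2-fold or more, 1 on the log2 scale, so ACTC1 met the first part and fell just short of the second. For reference, 0.0433% of all genes tested were higher at an adjusted p of at most 0.05, 0.0247% were lower, and 0.0371% met the study's rule in either direction. ACTC1 lost the call at an adjusted p of 0.05 when genes with as little as 1 read were kept (adjusted p = 0.613) and in limma fits of log2(RPKM + 0.1) and log2(RPKM + 1) (adjusted p = 0.143 and 0.160). With every library thinned to the smallest total its log2 fold change was 0.96, and without any 1 library it lay between 0.91 and 1.07, no longer past the threshold in limma fits of 3 libraries (adjusted p from 0.721 to 0.896). An exact permutation test of 2 libraries against 2 cannot give a two-sided p below 0.333.

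**Figure D1:**
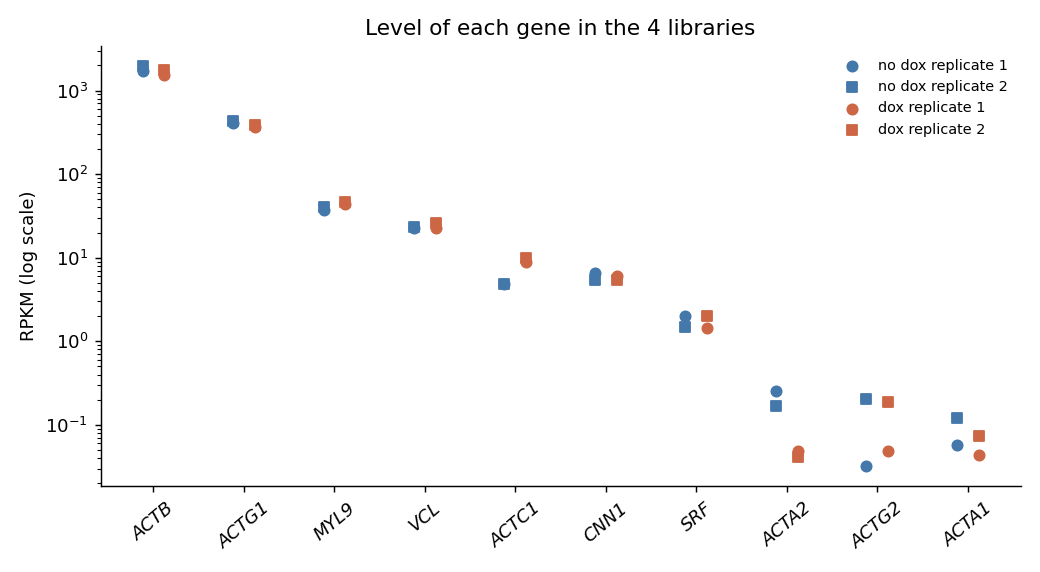
Level of each of the 10 genes in each library, as the authors' RPKM on a log axis, with no dox libraries in blue, dox libraries in orange, circles for replicate 1 and squares for replicate 2. ACTC1 stands at 4.90 and 4.80 in the no dox pair against 8.96 and 9.97 in the dox pair, while ACTB and ACTG1 overlap or nearly touch between the groups.

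The cytoplasmic actins carried almost all actin transcript, and neither passed the test. ACTB (chr7:5526409-5563902, minus strand) stood at 1734 and 1969 RPKM in the no dox pair against 1520 and 1777 in the dox pair. The groups overlapped, since dox replicate 2 was above no dox replicate 1. The log2 fold change of ACTB was -0.10 ± 0.13 (SE; 95% interval -0.39 to 0.19). ACTG1 (chr17:81509413-81523847, minus strand) stood at 404.3 and 430.3 RPKM in the no dox pair against 368.8 and 385.5 in the dox pair, so that both dox libraries were the lower ones on this scale. On the quantile-normalized log2 scale of the fit its values were 9.82, 10.09, 9.67 and 9.95 in the same order, and there the groups overlapped. The log2 fold change of ACTG1 was -0.14 ± 0.11 (SE; 95% interval -0.38 to 0.10).

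The other muscle actins were close to undetected. ACTA1 (chr1:229430365-229434104, minus strand), the skeletal muscle actin, had 2 and 4 reads in the no dox pair against 1 and 2 in the dox pair. ACTA2 (chr10:88935074-88991339, minus strand), the smooth muscle actin best known from vessels and activated fibroblasts, had 8 and 5 reads in the no dox pair against 1 and 1 in the dox pair. Both fell below the filter on low counts and were not tested, and 4 other annotated genes overlap ACTA2. ACTG2 (chr2:73892314-73919865, plus strand), the smooth muscle actin of the gut, had 2 and 12 reads in the no dox pair against 2 and 9 in the dox pair. It was tested, but its interval ran from -1.47 to 2.08 on the log2 scale, too wide to place a change of the size seen for ACTC1. ACTC1 was thus the only muscle actin with more than 12 reads in any of the 4 libraries.

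Per length, the order of the levels among the 10 genes was ACTB, ACTG1, MYL9, VCL, ACTC1, CNN1, SRF, ACTA2, ACTG2 and ACTA1, by the mean RPKM of the 4 libraries. ACTC1 and CNN1 were neighbours in this order and changed places between the groups: without dox CNN1 stood at 6.56 and 5.46 RPKM, above ACTC1, and with dox at 6.05 and 5.38, below it. ACTA2, ACTG2 and ACTA1 overlapped one another in their ranges over the libraries. By mean RPKM, ACTB ranked 21 and ACTC1 ranked 6390 among the 16181 genes tested.

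As a share of all reads on the 6 actins, ACTC1 took 0.468% and 0.409% in the no dox pair against 0.963% and 0.939% in the dox pair. ACTB took 77.3% and 78.4% in the no dox pair against 76.2% and 78.1% in the dox pair, and ACTG1 took 22.2%, 21.2%, 22.8% and 20.9% in the same order. The make-up of actin reads thus kept the same main components in all 4 libraries, while the small ACTC1 fraction was higher in both dox libraries. A ratio of ACTC1 to another gene within a library does not depend on how the libraries were scaled. The log2 ratio of ACTC1 to ACTB reads was -7.37 and -7.58 in the no dox pair against -6.31 and -6.38 in the dox pair, a difference of 1.13 or 2.19-fold. The log2 ratio to ACTG1 reads was -5.57 and -5.69 in the no dox pair against -4.57 and -4.48 in the dox pair, a difference of 1.11. For VCL, MYL9, CNN1 and SRF the same difference was 0.88, 0.74, 1.03 and 0.97. Against each of the 6 genes both dox libraries lay above both no dox libraries. All 6 ratios share the ACTC1 reads, and ACTC1 was chosen on this contrast, so their order is a description only.

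**Figure D2:**
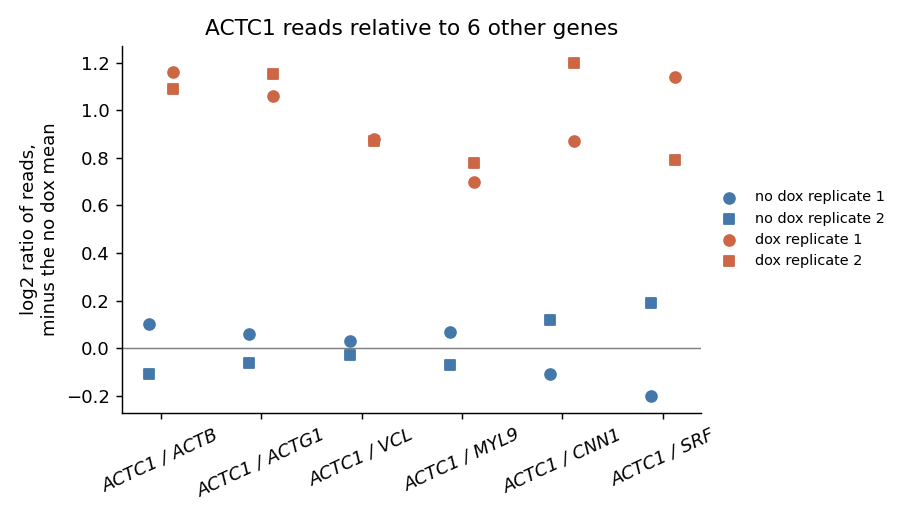
Log2 ratio of ACTC1 reads to the reads of 6 other genes in each library, minus the mean of the no dox libraries for that ratio, with no dox in blue, dox in orange, circles for replicate 1 and squares for replicate 2. The dox points stand above the no dox points for every ratio, with mean differences from 0.74 (MYL9) to 1.13 (ACTB).

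The 4 SRF-linked genes outside the actin family had smaller values. MYL9 (chr20:36541497-36551447, plus strand), the regulatory light chain of smooth muscle and non-muscle myosin, stood at 37.2 and 40.1 RPKM in the no dox pair against 43.9 and 46.1 in the dox pair. Both dox libraries were above both no dox libraries, and the log2 fold change was 0.25 ± 0.12 (SE; adjusted p by limma = 0.539), which did not pass the test. VCL (chr10:73995193-74121363, plus strand), vinculin, which links actin filaments to adhesion sites, stood at 22.7 and 23.0 RPKM in the no dox pair against 22.9 and 25.7 in the dox pair, with a log2 fold change of 0.11 ± 0.12. The VCL groups overlapped, since dox replicate 1 lay between the no dox libraries.

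CNN1 (chr19:11538767-11550323, plus strand), calponin 1, an actin-binding protein of smooth muscle and a much used MRTF-SRF target, had a log2 fold change of -0.05 ± 0.19 (SE; 95% interval -0.45 to 0.34). SRF itself (chr6:43171269-43181506, plus strand) stood at 1.99 and 1.48 RPKM in the no dox pair against 1.44 and 2.03 in the dox pair, with a log2 fold change of -0.02 ± 0.24 (SE; 95% interval -0.52 to 0.49). For CNN1 and SRF the groups overlapped. The intervals of ACTB, ACTG1, CNN1, MYL9, SRF and VCL all ended at or below 0.50, under the lower bound of 0.69 for ACTC1. That of ACTG2 reached 2.08. This order is a description only, as ACTC1 was chosen on this contrast.

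Of the 10 genes, 8 had enough reads to be tested. ACTC1 alone among these 8 was past an adjusted p of 0.05, and adjusted p (limma) lay between 0.539 and 0.992 for the other 7. The median log2 fold change of the 8 was 0.05, against -0.0004 for all genes tested, and 4 of the 8 were above 0, against 49.9% of all genes. Both dox libraries were above both no dox libraries for 2 of the 8, ACTC1 and MYL9, where 19.5% of all genes tested had that order, and for 0 of the 8 both were below, where 19.1% of all genes had it. Since ACTC1 was chosen on this contrast, nothing is read from these counts.

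**Figure D3:**
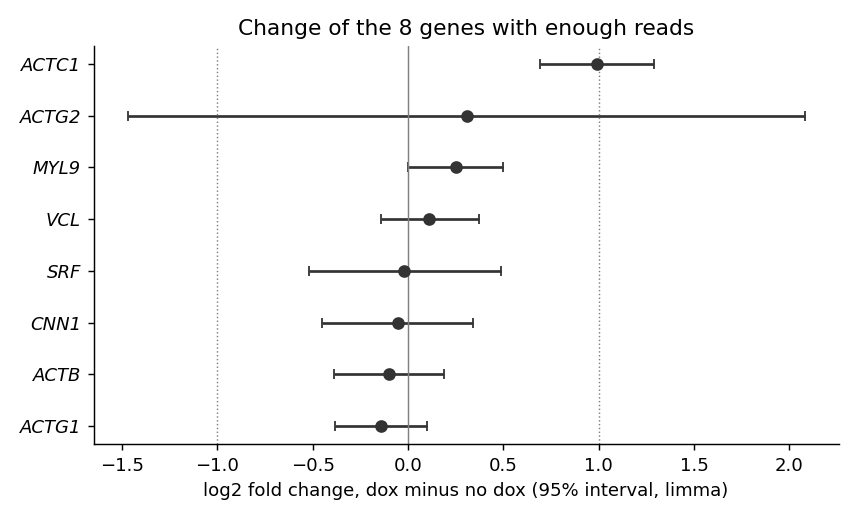
Log2 fold change, dox minus no dox, of the 8 genes with enough reads, with 95% intervals from limma, and dotted lines at the 2-fold change of the study's rule. ACTC1 lies at 0.99 (0.69 to 1.29), and the intervals of the other 7 reach 0.

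Because actin genes are near copies of each other, 50-base reads may match more than 1 of them. Every 50-base stretch of 1 transcript of each actin was searched for in the genome and in the transcripts of other genes. Of the 1333 stretches of ACTC1, 10 had an exact copy elsewhere (0.75%), 111, those 10 included, had a copy within 2 mismatches (8.33%), and 91.67% were found nowhere else. ACTA1, ACTA2 and ACTG2 were alike, with 89.6%, 95.62% and 94.63% of stretches found nowhere else. The cytoplasmic actins had many more copies: 31.31% of ACTB and 50.37% of ACTG1 stretches were found nowhere else. The reads of ACTB and ACTG1 are therefore uncertain, since how reads with several matches were counted is not given. For ACTC1, 43 stretches (3.23%) matched ACTB within 2 mismatches, and 59 matched POTEM and 58 POTEKP, which are actin-like genes.

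**Figure D4:**
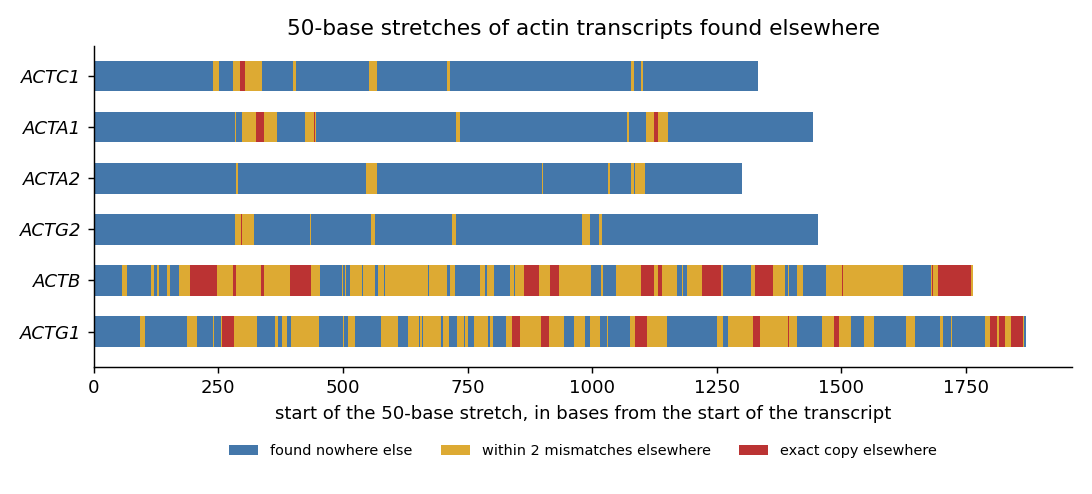
Each bar is 1 transcript of an actin gene, coloured at the start of each 50-base stretch by whether the stretch was found nowhere else (blue), within 2 mismatches elsewhere (yellow) or as an exact copy elsewhere (red), against the position in bases from the start of the transcript. Blue covers 91.67% of ACTC1 and 31.31% of ACTB.

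One annotated gene overlaps ACTC1, the antisense transcript GJD2-DT, which had 8 and 0 reads in the no dox pair against 1 and 2 in the dox pair. Whether counting used strand is not given, so reads of both genes cannot be told apart. The part of GJD2-DT in the ACTC1 reads was not tested. Within 500 kb of ACTC1, 37 genes of 39 annotated were in the table and 10 were tested. Among those tested, FSCN1P1, a pseudogene, had a log2 fold change of -0.41, and AQR, a splicing helicase, -0.01. NOP10, a small nucleolar RNA-binding protein, had 0.07, LPCAT4, a lysophospholipid acyltransferase, -0.03, and DPH6, a diphthamide synthesis enzyme, 0.11. Adjusted p (limma) of these 5 lay between 0.669 and 0.987.

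Of the other cardiac muscle genes few had enough reads to be tested, and none of those passed the test. Of 27 other cardiac muscle genes, 11 were at 0 reads in all 4 libraries, among them MYH7, NPPA, GATA4 and TBX5, and MYH6 had reads only in dox replicate 2, where it had 2. Of the list, 7 were tested and 0 passed an adjusted p of 0.05 (limma, edgeR and DESeq2), with 1 higher and 0 lower before adjustment (p under 0.05). At that unadjusted level 4.68% of all genes were higher and 4.59% lower. The best detected were TNNC1 (troponin C), with 1761 and 1541 reads in the no dox pair against 1057 and 1153 in the dox pair and a log2 fold change of -0.09 ± 0.12, and TNNI3 (cardiac troponin I), with 409, 365, 315 and 388 reads and 0.33 ± 0.15. The median of the 7 was -0.08. Summed over the list, the level in CPM (counts scaled to a common library total) was 97.3 and 97.7 in the no dox pair against 93.6 and 102.4 in the dox pair, so the groups overlapped. Most of that sum was TNNC1, with 72.2 and 72.7 CPM in the no dox pair against 66.3 and 67.6 in the dox pair. Of 15 skeletal muscle genes 4 were tested and 0 passed (limma), with a median of -0.28 and 0 at an unadjusted p under 0.05 in either direction.

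SRF's partners other than myocardin had enough reads to be tested, and none passed the test. Of 9 regulators and cofactors, SRF among them, 8 were tested and 0 passed an adjusted p of 0.05 (limma, edgeR and DESeq2). Before adjustment (limma, p under 0.05), 1 was higher and 0 lower, beside 4.68% and 4.59% of all genes. The median of the 8 was 0.11. MRTFB, an MRTF cofactor, had 204 and 152 reads in the no dox pair against 165 and 219 in the dox pair, with a log2 fold change of 0.57 ± 0.19 (adjusted p by limma = 0.367). MRTFA, its relative, had 0.19 ± 0.16. The ternary complex factors ELK1, ELK3 and ELK4 had -0.06, 0.15 and -0.25, and SCAI, a suppressor of MRTF, had 0.24. MYOCD, myocardin, the muscle-restricted member of the family, had 2 and 1 reads in the no dox pair against 0 and 0 in the dox pair.

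A wider list of 46 MRTF-SRF targets was mainly of the cytoskeleton, with some secreted proteins such as CCN1. It includes CNN1, MYL9 and VCL, and 45 of its members were tested. None passed an adjusted p of 0.05 with limma or edgeR, and 1 did with DESeq2, CCN2. At an unadjusted p under 0.05, 6 were higher and 0 lower (limma), beside 4.68% and 4.59% of all genes. Both dox libraries were above both no dox libraries for 15 and below for 4, beside 19.5% and 19.1% of all genes. The median was 0.07 and 28 of the 45 were above 0.

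The 2 highest members of that list with a mean of at least 50 reads were ANKRD1 and CCN2, and neither passed the test in limma. ANKRD1, a titin-binding repressor known from heart, had 51 and 37 reads in the no dox pair against 73 and 61 in the dox pair, with a log2 fold change of 1.01 ± 0.30 (adjusted p by limma = 0.306). CCN2, connective tissue growth factor, had 915 and 1011 reads in the no dox pair against 929 and 1471 in the dox pair, with 0.76 ± 0.15 (adjusted p by limma = 0.146). In both genes the dox libraries were above the no dox libraries after scaling. CCN1, a related secreted protein, had 0.53 ± 0.15, and MYL12A, a myosin regulatory light chain, 0.39 ± 0.09. The lowest members with a mean of at least 50 reads were MYH10, non-muscle myosin IIB, at -0.25 and FHL3, a LIM protein, at -0.18. ACTC1 and ANKRD1 thus had log2 fold changes of like size, with a smaller SE for ACTC1, which had about 10 times as many reads. CCN1 and MYL12A were named after their values were seen.

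**Figure D5:**
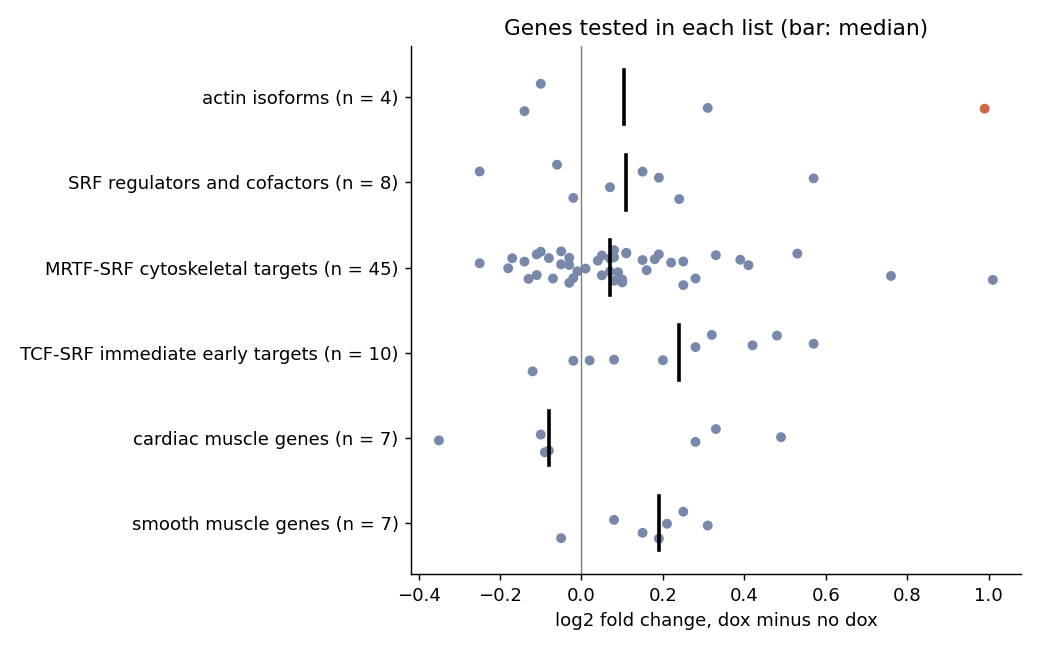
Log2 fold change, dox minus no dox, of every tested gene in 6 lists, 1 point a gene (orange where the adjusted p from limma was at most 0.05), with a black bar at the median of the list. ACTC1 is the orange point among the actins at 0.99. ANKRD1 (1.01) and CCN2 (0.76) lead the list of MRTF-SRF targets, whose median is 0.07.

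TCF-SRF immediate early genes had 10 of 14 members tested, with 0 past an adjusted p of 0.05 (limma, edgeR and DESeq2), 3 higher and 0 lower before adjustment (p under 0.05), and a median of 0.24. Of all genes, 4.68% were higher and 4.59% lower at that level. FOS, a subunit of the AP-1 transcription factor, had 283 and 309 reads in the no dox pair against 266 and 377 in the dox pair, with a log2 fold change of 0.57 ± 0.17 (adjusted p by limma = 0.305). JUNB, another AP-1 subunit, had 0.42 ± 0.13. The lowest were ATF3 at -0.12 and IER2 at -0.02, and EGR1 had between 2 and 9 reads in a library.

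No gene of the remaining lists passed the test. Of 13 smooth muscle genes 7 were tested, with 0 past an adjusted p of 0.05 (limma), 0 at an unadjusted p under 0.05, and a median of 0.19. TAGLN, transgelin, an actin-binding protein, had 0.25 ± 0.17 and SYNM, synemin, 0.21 ± 0.29. Of 11 actin copies and relatives 6 were tested with a median of -0.01, from ACTL6A at -0.10 to POTEKP, an actin-like gene that shares 50-base stretches with ACTC1, at 0.31 ± 0.32 from 42, 42, 31 and 49 reads. Epithelial markers had 7 of 10 tested and 0 past an adjusted p of 0.05 (limma). Before adjustment (limma, p under 0.05), 0 were higher and 2 lower, beside 4.68% and 4.59% of all genes. These 2 were the keratins KRT18 (-0.41 ± 0.13) and KRT8 (-0.34 ± 0.11). The median of the 7 was 0.13. Both dox libraries were above both no dox libraries for 4 and below for 2, beside 19.5% and 19.1% of all genes. The 4 were EPCAM (0.13 ± 0.15), KRT7 (0.13 ± 0.12), CDH1 (0.25 ± 0.17) and CLDN4 (0.56 ± 0.35). The 10 epithelial markers together summed to 284.6 and 324.7 CPM in the no dox pair against 248.4 and 283.1 in the dox pair, a sum in which KRT8 and KRT18 had the most reads. Fibroblast markers had 4 of 10 tested, 0 passed at either level (limma), and the list summed to 99.1 and 117.7 CPM in the no dox pair against 91.0 and 115.3 in the dox pair. The part of these marker differences in the ACTC1 result was not tested.

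The genes most like ACTC1 were found by the Euclidean distance between mean-centred normalized log2 values over the 4 libraries, among 12343 genes with a mean of at least 50 reads. With 4 libraries this measure mostly finds genes that differ between the groups by the same amount. Near it were TCIM (distance 0.110), GEM (0.142), CNTD1 (0.162) and SMARCD3 (0.178). TCIM had 212 and 211 reads in the no dox pair against 248 and 358 in the dox pair, with a log2 fold change of 0.96 ± 0.17. GEM, a small GTPase, had 87, 69, 98 and 138 reads and 1.01 ± 0.24. CNTD1 had 0.94 ± 0.29 and SMARCD3, a subunit of the SWI/SNF chromatin remodeller, 0.82 ± 0.20. In each of these 4 genes the dox libraries lay above the no dox libraries, and their adjusted p (limma) ran from 0.0761 to 0.329. None of the 4 was an actin or one of the SRF-linked genes examined.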

How the data were processed

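RNA-seq of 4 MIB1-iKO NCI-H838 samples, 2 no dox and 2 dox at day 3, was analysed, with groups from the sample labels. The authors removed ribosomal reads, aligned 50-base single-end reads to GRCh38 with GSNAP, allowing 2 mismatches, and counted reads over exons with HTSeqGenie. The counts deposited by the authors are raw whole numbers for each gene. The methods name a RefSeq annotation while the identifiers are Ensembl, and 2 kits are described, for low and for regular RNA input, the second stranded, not saying which these samples had; use of strand in counting is not given in the sources used here. The deposited RPKM are the authors' reads scaled by gene length and depth, with a further scaling per sample, and served for levels and as an alternative. Symbols came from GENCODE 44 (57532 of 58302 identifiers).

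Following the study's methods, counts of the 16181 genes kept by filterByExpr were divided by library size, brought to common quantiles and given voom weights, and the dox minus no dox contrast was fitted in limma 3.58.1 (R 4.3.3), without covariates. Adjusted p-values are Benjamini-Hochberg over all genes tested, and intervals use limma's moderated errors. Alternatives were edgeR 4.0.16 (quasi-likelihood), DESeq2 1.42.0, voom with TMM or library size only, other filters, limma on log2(RPKM + 0.1) and log2(RPKM + 1), thinning, a threshold of 0.1, the replicate number as a term, and leaving out each library. The main fit, edgeR, DESeq2 and the fit with the replicate number were also run on simulated counts without a replicate effect. That run checked the recovery of known fold changes, not the p-values of the real data.

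Totals ran from 15943025 to 24398411 reads. A count of 0 allows up to 3 reads, and covers counting error only, since reads without molecular identifiers are not independent molecules. Named were MIB1, the 10 genes, list genes past the threshold, the 2 highest and 2 lowest of each list with a mean of at least 50 reads, the neighbours of ACTC1 and the 5 genes most like it. Some results that this rule would name are not reported here. Genes named beside these were named after their values were seen. The members and lists were chosen with earlier results of these data known, and the lists were written from memory.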

Additional observations from a re-analysis of the deposited data

How the results depend on the processing

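The log2 fold change of ACTC1 kept its direction under all 14 alternatives run, and its adjusted p ran from 8.481e-11 to 0.6132 over the 10 with every library. With at least 1 read in any library it was 0.988 for ACTC1 and -2.583 for MIB1 (adjusted p = 0.6132 for both, limma; 28798 genes tested instead of 16181, and 0 genes past the threshold). With log2(RPKM + 0.1) they were 0.949 and -2.334, and with log2(RPKM + 1) 0.838 and -1.342. Under these 3 alternatives 0 of the 10 genes passed; the cause was not tested for the RPKM scales. Without 1 library, ACTC1 ranged from 0.908 to 1.072 and MIB1 from -2.998 to -2.162, and neither passed in those limma fits, which have 3 libraries and assume that the lone sample varies like the other group. The excess of ACTC1 over ACTB, 1.132, was 1.007 with log2(RPKM + 1) and from 1.024 to 1.240 without 1 library. That over ACTG1, 1.109, was 0.983 with log2(RPKM + 1), 1.018 after thinning and from 1.048 to 1.169 without 1 library.

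The uncalled values of ACTB, ACTG2, CNN1, SRF and VCL changed sign when 1 library was left out: ACTB without no dox replicate 2 (0.028) or dox replicate 1 (0.165), ACTG2 without no dox replicate 1 (-0.945) or dox replicate 2 (-0.488), CNN1 without no dox replicate 1 (0.101) or dox replicate 2 (0.035), SRF without no dox replicate 1 (0.211) or dox replicate 1 (0.255), and VCL without dox replicate 2 (-0.019). CCN2 made the count of MRTF-SRF targets 1 with DESeq2 and 1 after thinning, against 0.

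Deviations of same-numbered libraries correlated at r = 0.1339, with only 2 pairs, and the labels do not say what the number marks. With the replicate block, 1154 genes passed against 11, and so did 3 of the 10 genes (ACTC1, MYL9 and ACTG1). From the list of MRTF-SRF targets 7 passed (MYL9, MYL12A, TPM1, TPM2, CCN1, CCN2 and ANKRD1, all higher). Also past the threshold were 1 SRF regulator (MRTFB, higher) and 3 immediate early genes (FOS, JUNB and DUSP1, all higher). So were 5 actin assembly regulators, 3 higher and 2 lower. ACTA1 and ACTA2 had too few reads for a value in most fits. Depth also limits ACTG2, with 2 to 12 reads in a library.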
